A study of Mus musculus with 6 samples.

Results

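Matricellular proteins are secreted into the extracellular matrix, where they act less as scaffolding than as signals that tune how cells attach, contract and respond to growth factors. The 10 genes described here are the CCN family members CCN1, CCN2, CCN3 and CCN4, the thrombospondins THBS1 and THBS2, and FN1, TNC, POSTN and SPARC, which encode fibronectin, tenascin C, periostin and SPARC. They were taken by exact gene symbol from a table of 20323 genes, and each symbol had a single row. As background, CCN2 and fibronectin are classical targets of TGF-β in fibroblasts, CCN1 and CCN2 are also standard targets of the transcriptional coactivators YAP and TAZ, and thrombospondin 1 can activate latent TGF-β. In injured kidney, fibroblasts that deposit fibronectin and collagen form the fibrotic scar.

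The data are RNA-seq counts from 6 libraries of a kidney fibroblast line that the labels name RFB. All 6 received TGF-β, the cytokine that drives fibroblasts toward a fibrotic state. In 3 libraries this was the only treatment, and in 3 it was combined with CXCL10, a chemokine whose receptor is CXCR3; no library without TGF-β enters the comparison. CXCL10 samples carry a volume of 5 µl in their titles, with no concentration, and the labels give no genotype, time point or statement that replicates were separate cultures. The labels name mouse as the organism, but the table lists human genes under human Ensembl identifiers, so all values refer to human gene models.

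Libraries held 12838106 to 15587409 counts. Fibroblast markers (12 genes) summed to 62153 to 70168 CPM in each library (counts relative to library size, scaled by the trimmed mean of M values). COL1A1 alone gave 29922 to 38436 CPM of this sum. Tubule epithelium markers (11 genes, with LRP2, CDH16, SLC34A1, AQP2 and UMOD at 0 counts throughout) summed to 19.4 to 22.7 CPM, endothelial markers (8 genes) to 48.6 to 54.2 and leukocyte markers (8 genes) to 42.4 to 48.5, with overlapping groups in each list. Of the epithelial genes, CDH1 had 22, 32 and 49 counts with TGF-β and 3, 6 and 19 with CXCL10. Pericyte and smooth muscle markers (9 genes) summed to 533 to 698 CPM with TGF-β and 425 to 590 with CXCL10, and the part of these cell types in the results below was not tested. SUV39H1, named in the study's title, had 53, 90 and 66 counts with TGF-β and 81, 69 and 95 with CXCL10, CXCL10 itself had 4 counts in 1 library that received it and 0 in the other 5, and CXCR3 had 0 counts in all 6. TGF-β replicate 1 stood apart from its group: over 11970 tested genes its root mean square log2 difference was 0.45 from both other TGF-β libraries and 0.36 to 0.42 from the CXCL10 libraries.

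The members spanned the whole range from the most abundant transcripts of these cells to none. Per transcript length, in FPKM, a unit of fragments scaled for gene length and library depth, FN1 had a mean of 4773 over the 6 libraries and was the number 6 gene of the whole table. SPARC, a collagen-binding glycoprotein, followed at 2828 FPKM and number 13. CCN2 (206 FPKM), CCN1 (198 FPKM) and THBS1 (153 FPKM) formed a middle tier, then came CCN4 at 13.2 FPKM and THBS2 at 1.17 FPKM. CCN3 (0.213 FPKM), TNC (0.194 FPKM) and POSTN (0.0263 FPKM) were close to the floor. The order of CCN2 and CCN1, and that of CCN3 and TNC, changed from library to library in FPKM. CCN1 and CCN2 each exceeded THBS1 within every library, although their ranges over the libraries overlapped with that of THBS1. The 10 genes together took 4.33% to 4.79% of all counts with TGF-β and 4.91% to 5.02% with CXCL10, most of it FN1.

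**Figure D1:**
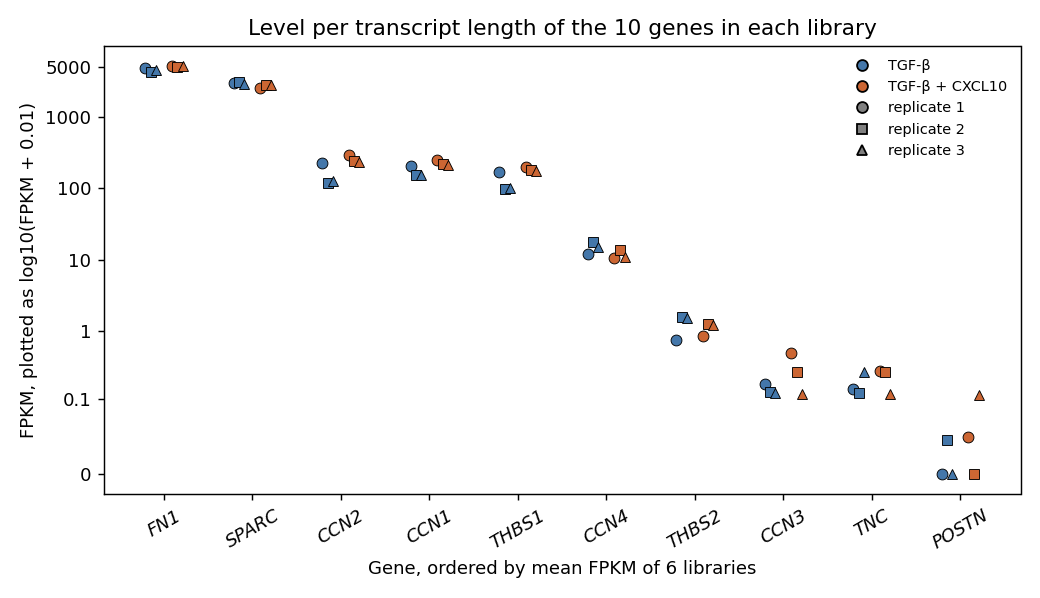
FPKM of the 10 genes (y axis, plotted as log10 of FPKM + 0.01) in each of 6 libraries, with genes on the x axis ordered by mean level, blue for TGF-β, orange for TGF-β with CXCL10, and the point shape for the replicate number. FN1 and SPARC are at 2499 FPKM or more in every library, while CCN3, TNC and POSTN are at 0.477 or less.

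The comparison addresses what CXCL10 changes in TGF-β-treated fibroblasts. With CXCL10, CCN2, THBS1, CCN1 and FN1 were higher, by 1.69-, 1.57-, 1.38- and 1.15-fold, and in each of these genes every CXCL10 library lay above every TGF-β library. CCN4 was lower, at 0.802-fold, and SPARC, THBS2 and TNC passed neither the paired nor the unpaired edgeR test. In bulk RNA, fewer cells of a type and less RNA per cell cannot be told apart. CCN3 and POSTN had too few counts to be tested. None of the 8 tested members passed edgeR's quasi-likelihood test without pairing of libraries (adjusted p = 0.161 to 0.680), and nor did any of the 11970 genes, although 2449 had an unadjusted p under 0.05. When libraries were paired by replicate number (a replicate block), 4 members rose (CCN1, CCN2, THBS1 and FN1) and 1 fell (CCN4). That fit called 9.71% of all tested genes higher and 8.03% lower.

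Whether a member passed depended on pairing and on TGF-β replicate 1. Without TGF-β replicate 1 and without pairing, the same 4 members were higher and CCN4 lower (edgeR adjusted p = 4.19e-05 to 0.0186), against 10.8% of all genes called higher and 8.79% lower. DESeq2 without pairing called CCN1 alone among the members (adjusted p = 0.0182), where it called 1.44% of genes higher and 1.36% lower. In the authors' deposited table CCN1 was likewise the 1 member with an adjusted p under 0.05, at 0.0244, in a table that puts 0.714% of the 15691 genes with a count higher and 0.618% lower at that threshold. Groups did not overlap for 4 of 8 tested members upward, against 11.1% of all tested genes, and for 1 of 8 downward (SPARC), against 11.2%. Of the other paired fits used for single members here, DESeq2 called 5.71% of genes higher and 3.79% lower, limma-trend 2.82% and 2.94%, edgeR with library totals 7.34% and 11.3%, and edgeR without replicate 3 of both groups 5.86% and 4.3%.

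CCN2 (ENSG00000118523) encodes connective tissue growth factor, which promotes matrix production and is widely used as a fibrosis marker. Its level was 528, 265 and 287 CPM in TGF-β replicates 1 to 3 and 702, 577 and 550 CPM in the CXCL10 replicates. TGF-β replicate 1 was almost level with the lowest CXCL10 library, which exceeded it by 1.04-fold, while the other TGF-β libraries were at about the same level as each other and far lower. The change was 0.76 on the log2 scale (SE 0.23, adjusted p = 0.161, edgeR) without pairing and 0.82 (SE 0.09, adjusted p = 7.45e-05) with it. Without TGF-β replicate 1 it was 1.14 (SE 0.09). Same-numbered libraries differed by 0.41, 1.12 and 0.94 in log2 CPM, so the difference was smallest in the pair that holds TGF-β replicate 1.

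CCN1 (ENSG00000142871), a secreted ligand of integrins and heparan sulphate that is induced quickly by growth factors and mechanical load, stood at 465, 337 and 340 CPM with TGF-β. With CXCL10 it stood at 579, 509 and 482 CPM. Replicate 1 was again the highest library of each group, and the groups were parted by 1.04-fold. The change was 0.46 (SE 0.12) without pairing and 0.47 (SE 0.05, adjusted p = 7.87e-05, edgeR) with it, or 0.63 without TGF-β replicate 1. CCN2 exceeded CCN1 in count in all 3 CXCL10 libraries (1.13 to 1.21 counts of CCN2 per count of CCN1) and in TGF-β replicate 1 (1.13), and was below it in TGF-β replicates 2 and 3 (0.787 and 0.846).

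CCN4 (ENSG00000104415), a Wnt-induced member of the family, moved the other way. It held 48.9, 62.3 and 63.2 CPM with TGF-β and 39.8, 52.3 and 47.9 CPM with CXCL10. The groups overlapped, since TGF-β replicate 1 lay below CXCL10 replicate 2, but the CXCL10 library was lower in each same-numbered pair, by 0.30, 0.25 and 0.40 in log2 CPM. CCN4 did not pass without pairing (log2 change -0.32, SE 0.13, adjusted p = 0.210, edgeR) and fell with it (-0.32, SE 0.07, adjusted p = 0.00698). The call was lost when replicate 3 was left out of both groups (adjusted p = 0.0733). DESeq2 with pairing also called it (adjusted p = 0.0385), and limma-trend on log2(FPKM + 1) with pairing did not (adjusted p = 0.101).

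Because CCN2 and CCN4 moved in opposite directions, their ratio within a library, which needs no scaling between libraries, spread widely. There were 10.8, 4.26 and 4.55 counts of CCN2 per count of CCN4 with TGF-β and 17.6, 11.05 and 11.5 with CXCL10. The pair was chosen after the values were seen, so the ratio is a description.

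CCN3 (ENSG00000136999), a family member often described as opposing CCN2, was barely detected. It had 6, 5 and 4 counts with TGF-β and 17, 8 and 4 with CXCL10, and the overlap at 4 counts leaves no difference to report at this depth. Without a filter on low counts its adjusted p was 0.499 (edgeR, no pairing).

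**Figure D2:**
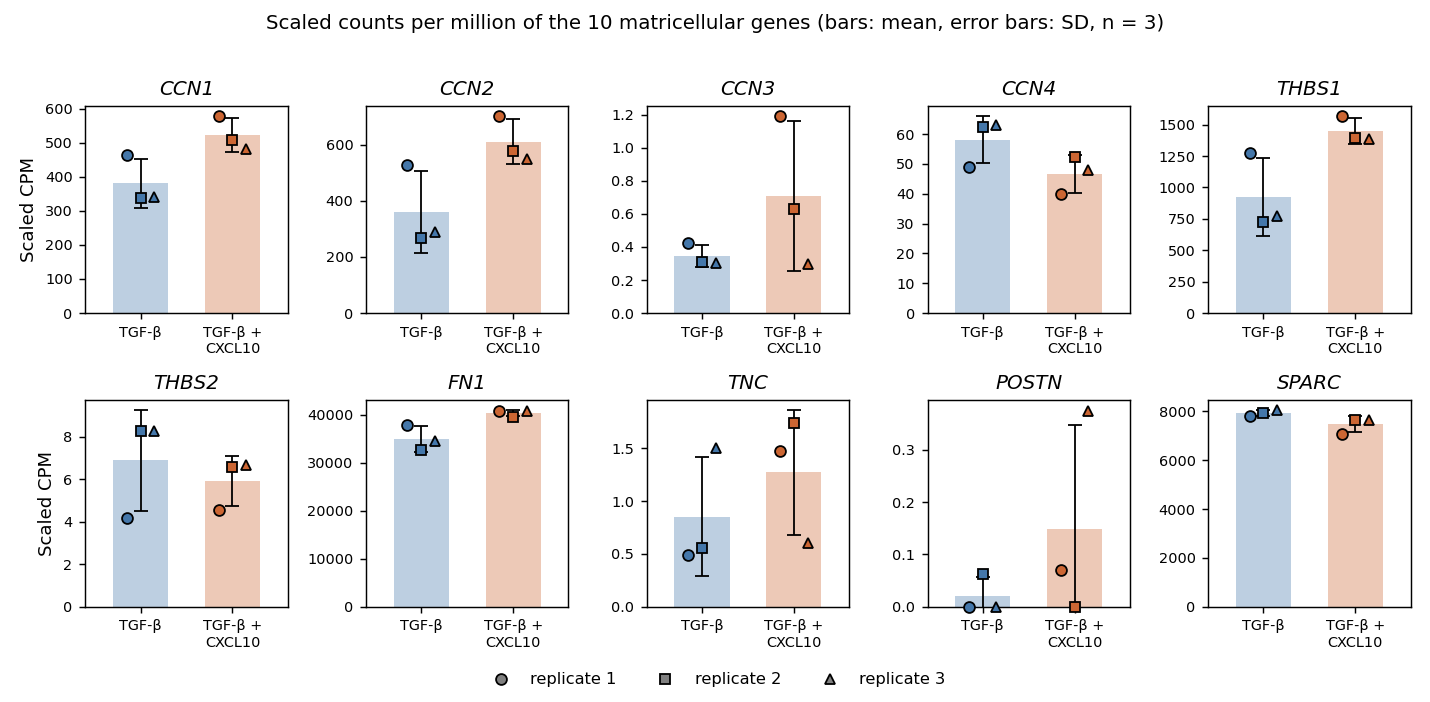
Scaled CPM (y axis, linear from 0) of each member in the 3 TGF-β and 3 TGF-β with CXCL10 libraries, with bars at the mean, error bars of 1 SD (for POSTN cut at 0) and point shapes for the replicate number. In CCN1, CCN2, THBS1 and FN1 the TGF-β replicate 1 circle lies above the other TGF-β points and just under the CXCL10 points.

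Among the thrombospondins, THBS1 (ENSG00000137801) followed CCN2. It held 1278, 723 and 771 CPM with TGF-β and 1570, 1391 and 1389 CPM with CXCL10. TGF-β replicate 1 was again between the other TGF-β libraries and the CXCL10 libraries, and the gap between groups was 1.09-fold. The change was 0.65 (SE 0.18, adjusted p = 0.161, edgeR) without pairing, 0.70 (SE 0.09, adjusted p = 0.000158) with it and 0.96 (SE 0.06) without TGF-β replicate 1.

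THBS2 (ENSG00000186340), a homologue that does not activate latent TGF-β and is needed for normal collagen fibril assembly, was far rarer than THBS1. It held 4.15, 8.28 and 8.26 CPM with TGF-β and 4.57, 6.56 and 6.67 CPM with CXCL10, so replicate 1 was the lowest library of both groups. Its change passed no edgeR fit (-0.22, SE 0.28, adjusted p = 0.680 without pairing and 0.546 with it). Its size hung on single libraries: without pairing it was -0.48 without TGF-β replicate 1, -0.06 and -0.07 without TGF-β replicates 2 and 3, and -0.06 without CXCL10 replicate 1. A library held 307.7, 87.4 and 93.4 counts of THBS1 per count of THBS2 with TGF-β and 343.8, 212.2 and 208.4 with CXCL10. TGF-β replicate 1 lay among the CXCL10 libraries in this ratio, which was also chosen after its values were seen.

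FN1 (ENSG00000115414), the glycoprotein onto which collagen and latent TGF-β complexes are assembled, took 3.78%, 3.36% and 3.52% of all counts with TGF-β and 4.01%, 3.91% and 4.02% with CXCL10. The exact 95% binomial interval of the first of these shares ran from 3.77% to 3.79%, for counting error only. In scaled CPM the values were 37968, 32616 and 34560 against 40800, 39617 and 40840. The 3 CXCL10 libraries lay close together (SD 695 CPM) and above the TGF-β libraries, which spread more widely (SD 2709 CPM). A small change resulted, 0.21 (SE 0.05, adjusted p = 0.161, edgeR) without pairing and 0.21 (SE 0.04, adjusted p = 0.00127) with it. The call was lost when replicate 3 was left out of both groups (adjusted p = 0.0631), and on log2(FPKM + 1) with pairing (limma adjusted p = 0.104).

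SPARC (ENSG00000113140) was slightly lower with CXCL10. It held 7817, 7947 and 8074 CPM with TGF-β and 7085, 7665 and 7654 CPM with CXCL10, and the highest CXCL10 library was at 0.981-fold of the lowest TGF-β library. The change of -0.09 (SE 0.05 without pairing, 0.04 with it) did not pass in edgeR (adjusted p = 0.316 and 0.0999), and without CXCL10 replicate 1 the unpaired change was -0.05. It passed with pairing when libraries were scaled by their totals alone (-0.13, adjusted p = 0.00706), a scaling under which 878 genes were called higher and 1358 lower in place of 1162 and 961. FN1 and SPARC are neighbours in abundance but differed in direction, with 4.10 to 4.86 counts of FN1 per count of SPARC with TGF-β and 5.17 to 5.76 with CXCL10, a pair chosen after its values were seen.

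The remaining members, which mark activated fibroblasts in many injured tissues, were almost absent. TNC (ENSG00000041982), an adhesion-modulating hexamer, had 7, 9 and 20 counts with TGF-β and 21, 22 and 8 with CXCL10. High and low libraries occurred in both groups, and no edgeR fit passed (adjusted p = 0.572 without pairing, 0.515 with it). The unpaired log2 change of 0.59 ranged from 0.31 to 1.26 as single libraries were left out. POSTN (ENSG00000133110), which links collagen and tenascin, had 0, 1 and 0 counts with TGF-β and 1, 0 and 5 with CXCL10. In the 3 libraries at 0, a count of 0 allows up to 0.211 to 0.237 CPM, for counting error only, and without a low-count filter its adjusted p was 0.510 (edgeR, no pairing).

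**Figure D3:**
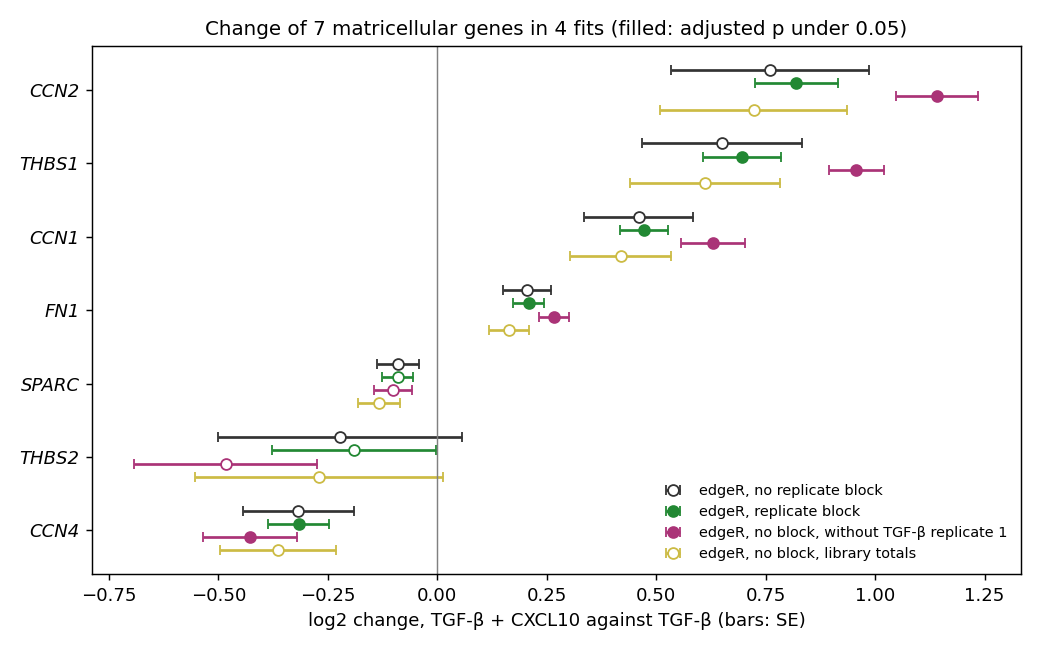
Log2 change with CXCL10 (x axis, points with SE bars) of 7 members (y axis) in 4 edgeR fits, filled where the adjusted p was under 0.05. The sign of each gene was the same in all 4 fits, and points are filled in the fits with pairing or without TGF-β replicate 1, for CCN2, THBS1, CCN1, FN1 and CCN4.

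The position of TGF-β replicate 1 was common to the members that passed. It was the highest TGF-β library for all 4 members that rose with pairing and the lowest for CCN4, the 1 that fell. The same held for 1090 of the 1162 genes called higher and 897 of the 961 called lower in that fit. On the log2 CPM scale replicate 1 exceeded the mean of replicates 2 and 3 of the TGF-β group by 0.93 for CCN2, 0.77 for THBS1, 0.46 for CCN1 and 0.18 for FN1, beside changes with CXCL10 of 0.76, 0.65, 0.46 and 0.21. In the CXCL10 group the corresponding differences were 0.32, 0.18, 0.23 and 0.02. What set TGF-β replicate 1 apart was not tested.

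Over 9705 genes that averaged 5 CPM or more, likeness to a member was measured as the root mean square difference of centred log2 CPM over the 6 libraries. Near to CCN2 were FZD8, a Wnt receptor (0.059), and ADAM19, a membrane metalloprotease (0.066). THBS1 was number 15 in that order, at 0.097. Nearest to THBS1 were XYLT1, which starts glycosaminoglycan chains (0.040), PSMD2, a proteasome subunit (0.048), and EMILIN1, an elastic fibre glycoprotein (0.058). Nearest to THBS2 were SRRM3 (0.109), RITA1 (0.119) and SAT2 (0.123). The median difference of all genes from these 3 members was 0.536, 0.450 and 0.396. With 6 libraries many profiles lie close together, and the measure includes the place of TGF-β replicate 1.

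Other matricellular genes leaned downward with pairing. This list and those below were written with earlier results of these data known, so their shares are a description. Of 27 listed genes 19 were tested, and 2 rose, 8 fell and 9 were not called with pairing in edgeR. Without pairing edgeR called 0 of them. DESeq2 without pairing called 1, CCN5 (lower, adjusted p = 0.0484), where it called 1.44% of all tested genes higher and 1.36% lower. Unpaired edgeR without TGF-β replicate 1 called 2 higher and 8 lower, where it called 10.8% and 8.79% of all tested genes. The paired calls are 10.5% and 42.1% of the tested list, beside 9.71% and 8.03% of all tested genes. The median change was -0.15, beside -0.01 for all tested genes. The ones that fell included CCN5 (ENSG00000064205), a CCN protein without the C-terminal domain of its relatives, from 14.7 ± 4.14 to 8.63 ± 2.08 CPM (SD, n = 3), a log2 change of -0.76. THBS3 fell from 49.9 ± 14.0 to 33.2 ± 7.75 CPM (-0.58), and both genes overlapped between groups. The tenascin TNXB (-0.40) and the galectin LGALS3 (-0.28) fell with no overlap (TNXB may share reads with a pseudogene copy). The fibulin FBLN2 fell by 0.23 on the log2 scale, with overlapping groups. The 2 that rose were the proteoglycan SPOCK1, from 18.8 ± 10.05 to 34.8 ± 4.03 CPM (0.96), and SPP1, which encodes osteopontin, from 1.78 ± 0.57 to 3.72 ± 0.57 CPM (1.07), named after its value was seen. The most abundant genes of this list, TGFBI (-0.04) and LGALS1 (0.09), did not pass (edgeR adjusted p = 0.379 and 0.228 with pairing).

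Of 22 cell-surface receptors that bind these proteins 15 were tested, and 4 rose and 2 fell with pairing. These are 26.7% and 13.3% of the tested list, beside 9.71% and 8.03% of all tested genes. Without pairing edgeR called 0 of them. The integrin subunit ITGB5, a partner of the αv chain, held 329, 278 and 304 CPM with TGF-β and 374, 368 and 383 with CXCL10 (log2 change 0.31, adjusted p = 0.00122 with pairing, edgeR; 0.0251 by DESeq2 without it). ITGA6 rose from 4.51 ± 1.84 to 9.35 ± 1.82 CPM (1.08) and was also called by DESeq2 without pairing (adjusted p = 0.0184). ITGA3 (0.31) and ITGB1 (0.14) rose as well. The collagen receptor DDR2 (-0.49) and the endocytic receptor LRP1 (-0.13), which clears thrombospondin and CCN2, fell. Groups overlapped for DDR2 and LRP1, and not for ITGB5, ITGA6, ITGA3 and ITGB1. ITGA5, the fibronectin receptor's α chain, stood at 0.06 (adjusted p = 0.358). The list median was 0.14.

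All 36 listed regulators of these genes' transcription were tested, and 8 rose, 4 fell and 24 were not called with pairing. The calls are 22.2% higher and 11.1% lower, beside 9.71% and 8.03% of all tested genes. Without pairing edgeR called 0 of them. TGFBR2, the ligand-binding TGF-β receptor, held 173, 105 and 101 CPM with TGF-β and 253, 177 and 186 with CXCL10 (0.72, SE 0.06, adjusted p = 9.88e-06, edgeR). FOSL1, an AP-1 subunit, rose from 17.0 ± 2.04 to 28.0 ± 5.53 CPM (0.71) and was called by DESeq2 without pairing (adjusted p = 0.00626). TGFB1 (0.36), the TEAD-binding cofactor VGLL3 (0.36) and the small GTPase RHOB (0.31) rose. The other 3 that rose, named after their values were seen, were TEAD4 (0.46), WWTR1, which encodes TAZ (0.26), and JUN (0.23). SMAD3, which carries the TGF-β signal to DNA, fell (-0.32), from 56.5 ± 6.59 to 45.2 ± 3.73 CPM. The other 3 that fell, named after their values were seen, were TEAD3 (-0.25), MRTFA (-0.20) and EGR1 (-1.10, from 6.76 ± 2.42 to 3.09 ± 0.84 CPM). EGR1 was also called lower by DESeq2 without pairing (adjusted p = 0.0291). Among the regulators called with pairing, groups overlapped for TGFB1, TEAD4 and WWTR1 only. RHOA (0.05) and JUNB (0.11) did not pass (adjusted p = 0.519 and 0.175), and the list median was -0.03. Nor did YAP1 (-0.03), TEAD1 (-0.09) and TEAD2 (-0.10), named after their values were seen (edgeR adjusted p = 0.765, 0.239 and 0.591 with pairing).

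Of 26 genes of fibronectin assembly and matrix crosslinking, all tested, 3 rose and 4 fell with pairing, which is 11.5% and 15.4% of the list beside 9.71% and 8.03% of all tested genes. The unpaired edgeR fit called 0 of them. DESeq2 without pairing called 1, TLN1 (higher, adjusted p = 0.0193), where it called 1.44% of all tested genes higher and 1.36% lower. TLN1, the integrin-activating talin, rose from 804 ± 91.9 to 1017 ± 25.6 CPM (0.34) and LTBP2, a microfibril protein related to the latent TGF-β binding proteins, from 544 ± 130 to 708 ± 20.1 CPM (0.41). The third, named after its value was seen, was TGM2, a transglutaminase that crosslinks fibronectin (0.23). LOXL4 (-0.39), TNS3 (-0.30), FBN2 (-0.17) and COL1A1 (-0.14) fell. Groups overlapped for LTBP2, TGM2, LOXL4, FBN2 and COL1A1, and not for TLN1 and TNS3. COL3A1 stood at -0.11 (edgeR adjusted p = 0.0532 with pairing). Over the 4 lists TGF-β replicate 1 was the highest TGF-β library for 16 of 17 genes that rose and the lowest for 18 of 18 that fell. The same held for 93.8% of all genes called higher and 93.3% of all called lower in that fit.

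**Figure D4:**
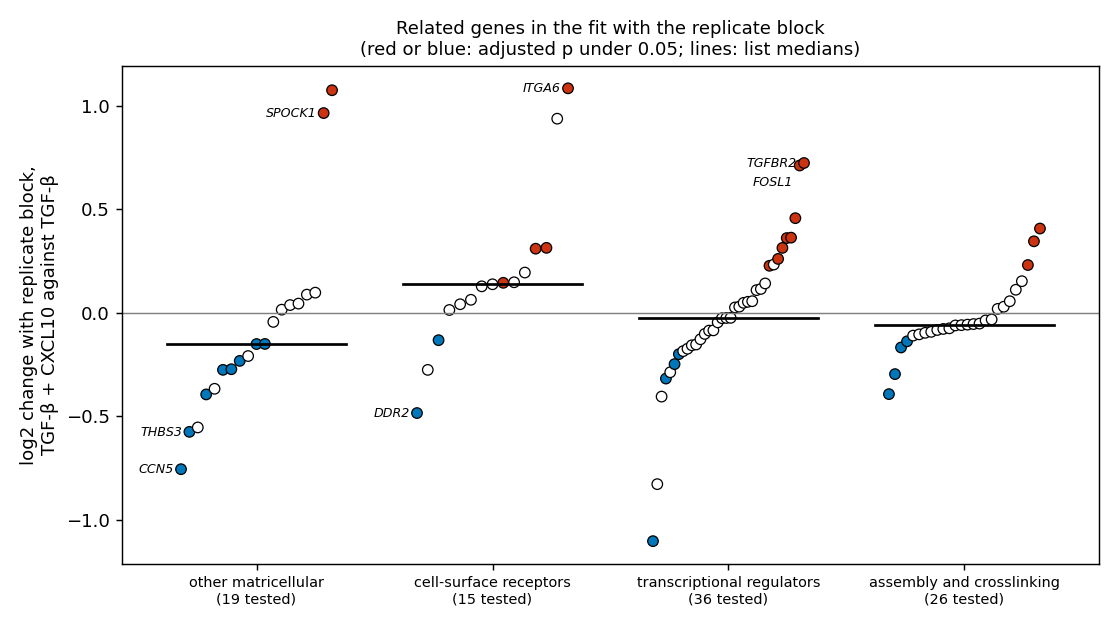
Log2 change with CXCL10 in the edgeR fit with the replicate block (y axis) for each tested gene of 4 lists (x axis, sorted within a list), red where a gene rose and blue where it fell at an adjusted p under 0.05, with black lines at the list medians. In the list of other matricellular genes 8 of 19 points are blue and 2 red, and in the receptor list 4 of 15 are red and 2 blue.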

How the data were processed

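Members and lists were chosen with earlier results of these data known. Per the file headers, the deposited table gives each gene raw counts and FPKM for the 6 libraries, with the authors' mean FPKM, log2 ratio of means, p-value and adjusted p. The submitters' processing notes name the builds GRCm38 and mm10, while rows are human genes, with aligner, counter and strand setting not given in the sources used here. Neither coordinates nor sequences are given, for want of a human reference. Counts over FPKM gave 1 length for CCN1 (2.28 kb) and CCN2 (2.34 kb) in every library but 3.70 to 4.39 kb for CCN4 and 2.60 to 2.86 kb for SPARC, so FPKM and count changes can differ.

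Counts were tested with the quasi-likelihood test of edgeR 4.0.16 (R 4.3.3) after TMM scaling (filterByExpr keeping a count of 10 and total of 15 as minima, Benjamini-Hochberg adjustment over 11970 genes, threshold 0.05); SE is the log2 change over the root of F. Log2 CPM uses a prior count of 2. Alternatives used DESeq2 1.42.0 and limma 3.58.1 on log2(FPKM + 1), whose changes understate those of low genes. The edgeR, DESeq2 and limma-trend fits, each with and without the replicate block, were run on simulated counts (limma on log2(CPM + 1)). The simulation held no replicate effect and no library set apart like TGF-β replicate 1, so it could not test the pairing. Fits with other scalings, filters or pseudocounts, or with libraries left out, were not simulated. After removal of group means, libraries of the same number correlated across genes at 0.330, 0.121 and 0.163, each over 0.1, so the numbers were taken as pairs. The labels state no such pairing, and replicates 2 and 3 also correlated when crossed (0.0825 and 0.0803). With group means removed, the deviations of a group sum to 0, so these correlations are not independent of each other. The pairing was judged on the same values that the paired fits test, so paired p-values give no separate evidence for it. P-values measure the spread between libraries, which may be technical. In the paired fits little spread remains within a gene, so it is taken largely from other genes. This applies most to the paired fits that leave out a replicate number, whose p-values and counts of calls may be too favourable. Named genes are the members, the 6 of each list with the lowest paired p, the 2 most abundant by FPKM, and the 3 genes nearest to each of the 3 members (mean of at least 5 CPM) that varied most. A gene that this rule names is not reported here.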

Additional observations from a re-analysis of the deposited data

How the results depend on the processing

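Without pairing, edgeR called 0 genes with TMM, RLE or library-total scaling, with no low-count filter and with a minimum mean of 5 CPM, and limma-trend on log2(FPKM + 1) called 0. Fits with the replicate block are paired by number. Genes called higher and lower were 1162 and 961 with the replicate block, 172 and 163 by DESeq2, 684 and 454 by DESeq2 with the block, 337 and 352 by limma-trend on log2(FPKM + 1) with the block, 332 and 347 with a pseudocount of 0.1, 878 and 1358 with library totals and the block, and 1391 and 1045 with no filter and the block, which was chosen after seeing the data. In the same order, members called higher were 4, 1, 4, 3, 3, 4 and 4, and members called lower were 1, 0, 1, 0, 0, 2 and 1. Genes of the 4 lists called higher were 17, 4, 13, 5, 5, 16 and 19, and those called lower 18, 2, 14, 7, 8, 23 and 20. Leaving out 1 library without pairing gave 0 to 1298 genes higher and 0 to 1052 lower, 0 to 4 and 0 to 1 members, and 0 to 19 and 0 to 23 list genes, with every call from the fit without TGF-β replicate 1. Leaving out both libraries of a replicate number with the block gave 1543, 733 and 701 genes higher and 1329, 611 and 515 lower (replicates 1, 2 and 3), 3 to 4 and 0 to 1 members, and 12 to 25 and 9 to 23 list genes. The cause of these differences was not tested. None of the 8 tested members or the list genes named by lowest paired p or by abundance changed sign under the alternatives that gave them a value. Genes named after their values were seen were not compared in this way. TNC had none with a minimum mean of 5 CPM, and CCN3 and POSTN had values without the low-count filter only, so their sign was not compared. Depth limits CCN3, TNC and POSTN, whose libraries held at most 22 counts.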
